A study of Mus musculus with 8 samples.

Results

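The clustered protocadherins are the 58 mouse genes named Pcdha1 to Pcdhac2 (14 genes), Pcdhb1 to Pcdhb22 (22 genes) and Pcdhga1 to Pcdhgc5 (22 genes). They were chosen by symbol, each had 1 row in the deposited count matrix, and they make up 58 of its 23483 genes. Poly(A) RNA was measured in C57BL/6 cells in 4 groups of 2 libraries, and 5.5 mM glucose is given for all 8. The groups were embryonic stem cells (mESC), maintained with LIF and carrying no construct; untreated Sca1 cells with no construct; Sca1 cells transduced with a non-target shRNA control (NTC); and Sca1 cells transduced with an shRNA against Set7 (the Set7 knock-down). Sca1 cells had been sorted with magnetic beads from stem cells kept without LIF for 4 days on gelatin, with a purity above 80% per the labels' protocols, and then grown for 2 to 8 population doublings without LIF. Both shRNA groups went through lentiviral transduction and at least a week of 1 µg/ml puromycin, which the untreated cells did not. Only a single shRNA sequence against Set7 is given in the labels, and the labels do not state whether 2 replicates were grown apart. The p-values therefore refer to variation among these libraries, which may be technical.

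Clustered protocadherins are cadherin-like adhesion molecules of the cell surface, best known in neurons, where each cell displays its own combination of isoforms and branches of the same neuron recognise each other through them. In the Pcdha and Pcdhg clusters every isoform has its own promoter and its own large variable exon, which is spliced to a short set of constant exons shared by the whole cluster. Pcdhb genes have a variable exon and no shared constant exons. Promoter choice is known to depend on DNA methylation, on the insulator protein CTCF and on the cohesin ring that holds chromatin loops. The isoforms of the C type (Pcdhac1, Pcdhac2, Pcdhgc3, Pcdhgc4 and Pcdhgc5) are regulated apart from the others, and Pcdhgc3 is known from many cell types outside the nervous system.

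The counts assigned to genes were between 2507938 and 5080266 reads per library, and 13966 genes had enough reads to be tested. Levels are given as CPM, read counts scaled to library size with TMM factors, so they can be compared between libraries for the same gene but not between genes of different length. A gene was called at a Benjamini-Hochberg adjusted p of 0.05 or less in edgeR's quasi-likelihood test. Setd7, the gene of the Set7 lysine methyltransferase, stood at 11.2 and 16.5 CPM in mESC, 76.3 and 66.3 in untreated Sca1 cells, 60.7 and 66.6 in NTC cells and 14.0 and 10.8 in the knock-down. Its level thus fits the labels, with a log2 difference between knock-down and NTC of -2.39 ± 0.20 (SE). Ly6a, which encodes the sorting antigen Sca1, had between 4.42 and 13.0 CPM in the 8 libraries and was not called in any comparison, so RNA of the sorting marker did not set the sorted cells apart from mESC.

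The shRNA against Set7 is shown because the knock-down comparison rests on it. Its 21-base target has an exact match in transcripts of only 1 gene of the GENCODE vM21 set, Setd7, in exon 8 of Setd7-201, in the 3′ untranslated region, at chr3:51520958-51520978 on the minus strand of GRCm38.
Set7 shRNA target: ccgtgttcagagataccaaat

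The rows of the matrix did not measure separate isoforms in 2 of the 3 clusters. Ordered by start site, the Pcdhg counts never increased from a row to the next in any library: 168 of 168 steps were level or falling, and 155 fell. The same held for 104 of 104 steps among the Pcdha rows, where 8 fell. These counts are those of rows that hold the reads from each gene's start to the shared end of the cluster, other isoforms and introns included. That reading was inferred from the values and the gene order, since the counting program is not given in the sources used here, and every segment value depends on it. Among 116 other pairs of genes in the matrix where a gene lies inside the span of another, the outer gene had at least as many reads as the inner gene in all 8 libraries in 100 pairs. That held in 32 of the 33 pairs on the same strand, 59 of the 73 on opposite strands and 9 of the 10 of unknown strand. The pairs outside those 100 do not have the order that such counting would give. No baseline for other ways of counting was taken, so this check does not settle how the reads were counted. The Pcdha rows had 7 distinct sets of counts (11 of 14 rows repeated another), the Pcdhb rows 15 (11 of 22 repeated another), and the 22 Pcdhg rows were all distinct. The difference between neighbouring rows, the reads from a gene's start to the next gene's start, is called a segment here. Segments share no reads, the last Pcdhg segment runs from Pcdhgc5 to the end of the cluster and includes the constant exons of all isoforms, and this way of counting was chosen after the rows had been seen to be nested.

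**Figure D1:**
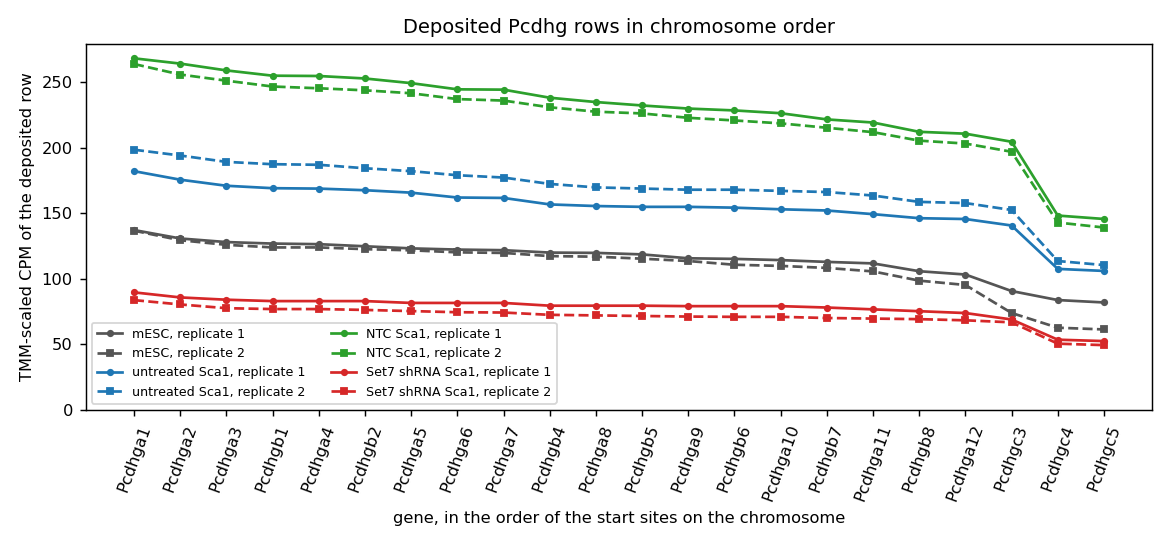
TMM-scaled CPM (y axis) of the 22 deposited Pcdhg rows in chromosome order (x axis), with a line for each of the 8 libraries. Every line falls or stays level from Pcdhga1 to Pcdhgc5, the NTC libraries lie highest and the knock-down libraries lowest, and the step after Pcdhgc3 is smallest in the mESC lines (6.87 and 11.2 CPM).

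The Pcdhg cluster was the most strongly counted of the clusters and differed between all the groups compared. The Pcdhga1 row, which holds every read of the cluster, had 137 and 137 CPM in mESC, 182 and 198 in untreated Sca1 cells, 268 and 264 in NTC cells and 89.7 and 83.7 in the Set7 knock-down. Libraries of different groups did not overlap, and the knock-down lay below mESC. The means were 137 ± 0.336 CPM (SD, n = 2) in mESC, 190 ± 11.6 in untreated, 266 ± 3.06 in NTC and 86.7 ± 4.18 in knock-down cells.

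**Figure D2:**
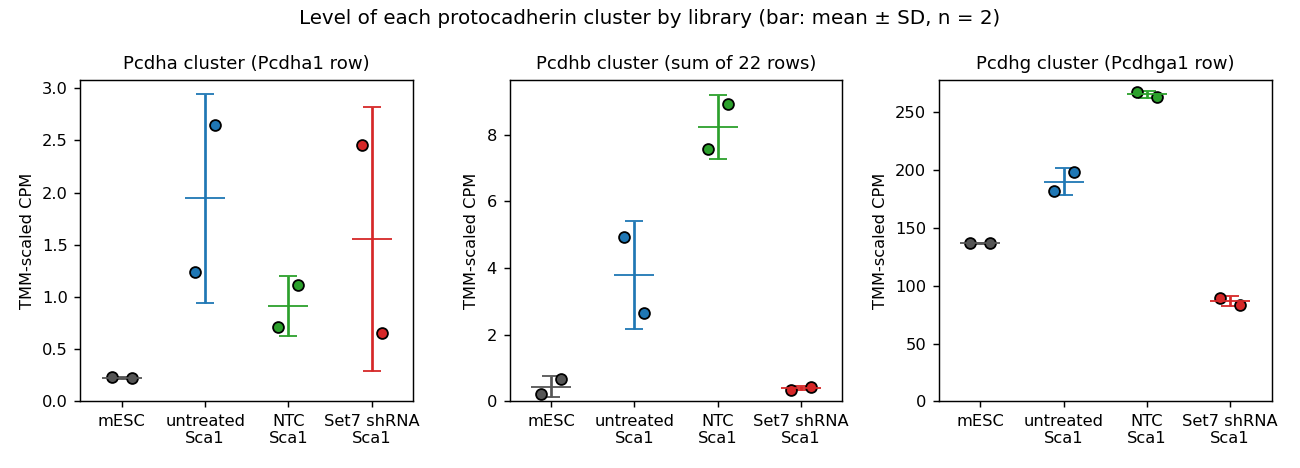
TMM-scaled CPM (y axes, each from 0) of the Pcdha cluster, the summed Pcdhb genes and the Pcdhg cluster in the 4 groups. Points are libraries and bars are the mean ± SD of 2; Pcdhb and Pcdhg were lowest in mESC and knock-down and highest in NTC, while the Pcdha points of the knock-down overlapped those of untreated and NTC cells, with NTC below untreated.

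Untreated Sca1 cells were set against mESC to see what changed with differentiation and sorting. The cluster as a whole rose by 0.47 ± 0.11 on the log2 scale (Pcdhga1 row, adjusted p = 0.00368), and all 22 Pcdhg rows were called higher, with changes from 0.46 to 0.83. Of the 58 members, 30 had enough reads for the test and all 30 were called higher, against 18.7% of all genes tested (35.5% in either direction). These 30 are not independent counts, since 29 of them belong to the nested Pcdha and Pcdhg rows. The 7 Pcdha rows among them had enough reads for the test only through an untreated and a knock-down library. Within the library codes that both groups share in the labels, the log2 difference of the Pcdhga1 row was 0.41 for code 34 and 0.54 for code 56.

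The Set7 knock-down was set against NTC to see what changed when Setd7 was lowered. The Pcdhg cluster fell by 1.62 ± 0.12 on the log2 scale (Pcdhga1 row, adjusted p = 2.27e-08), a ratio of 3.09 between NTC and knock-down with an exact 95% counting interval from 2.83 to 3.38. All 22 Pcdhg rows and Pcdhb22 were called lower, 23 of 30 members tested, where 10.1% of all genes were called lower and 4.25% higher (14.3% in either direction). These 23 are not independent counts, since 22 of them are nested rows that share reads. Pcdhb22 had enough reads for the test only with its NTC reads. The 7 Pcdha rows tested were not called. The difference was -1.58 within library code 12 and -1.65 within code 34. Against untreated Sca1 cells in place of NTC it was -1.13, and still called.

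Between the 2 control groups the cluster differed as well. The Pcdhga1 row was higher in NTC than in untreated cells by 0.48 ± 0.11 (adjusted p = 0.0180), and 20 of the 22 Pcdhg rows were called higher, where 3.88% of all genes were (1.11% lower, 4.99% in either direction). The nested rows share reads, so they are not independent counts here either. Pcdhgc4 and Pcdhgc5 missed the threshold (adjusted p = 0.103 and 0.106). This count was the least firm: it fell to 0 without untreated replicate 1, NTC replicate 1 or NTC replicate 2, and to 2 without either knock-down library. The NTC and untreated libraries enter 2 comparisons each, so the 3 sets of values are not independent.

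Some marker lists of other cells shared parts of the Pcdhg pattern and others did not. Mesenchymal, smooth muscle and neural progenitor sums were higher in untreated cells than in mESC and lower in the knock-down than in NTC. Of these, only the mesenchymal sum was higher in both NTC libraries than in the untreated libraries. The 7 mesenchymal marker genes summed to between 22.4 and 27.7 CPM in mESC, 759 and 835 in untreated, 1811 and 1879 in NTC and 84.2 and 94.9 in knock-down cells, with Postn at 0 in mESC and in the knock-down. The 5 smooth muscle markers summed to between 36.2 and 38.1, 735 and 1109, 686 and 716, and 179 and 203 CPM in the same order. Neural progenitor markers, mostly the intermediate filament gene Nes, summed to between 14.3 and 17.6 CPM in mESC, 184 and 191 in untreated, 175 and 203 in NTC and 44.2 and 50.8 in knock-down cells. Neuronal markers did not follow the order of the Pcdhg levels (480 and 519, 219 and 242, 198 and 205, and 201 and 206 CPM), and the 5 glial markers stayed at or below 7.10 CPM with Olig2 and S100b at 0. Endothelial markers (169 and 185, 51.9 and 49.5, 92.4 and 98.5, and 99.5 and 115 CPM) and embryonic stem cell markers (2591 and 2189, 1766 and 1579, 1606 and 1556, and 2036 and 1993 CPM) were highest in mESC. The part of these cell types in the protocadherin levels was not tested, and in bulk RNA fewer cells of a type and less RNA per cell cannot be told apart.

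Divided into segments, the Pcdhg cluster did not move as a block between mESC and Sca1 cells. Of 22 segments 15 had enough reads for the test. In untreated Sca1 cells 4 were called higher and 3 lower than in mESC, where 18.5% and 16.9% of all features in that fit were called (35.4% in either direction). These counts fell to 2 higher without any 1 of the mESC, NTC or knock-down libraries or untreated replicate 2, and to 1 lower without untreated replicate 1, either NTC library or knock-down replicate 1. The segments before Pcdhgc3 together had 488 reads in the mESC libraries and 238 in the untreated libraries, a scaled ratio of 0.790 (exact 95% counting interval 0.674 to 0.925), while the cluster as a whole was higher. The largest fall in CPM before Pcdhgc3 was in the Pcdhga12 segment, with 152 against 28 reads, a scaled ratio of 0.299 (0.192 to 0.449). The segments of Pcdhgb5, Pcdhga9, Pcdhga11 and Pcdhgb8 also had counting intervals below a ratio of 1. Those of Pcdhga5, Pcdhga7 and Pcdhgb4 had intervals above 1. The segments from Pcdhga1 to Pcdhgb8 held 148 and 188 reads in mESC and 118 and 92 in untreated cells. Scaled to library size, their sums overlapped between these groups.

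Pcdhgc3, a C-type isoform, had the segment with the smallest p in this comparison. It held 30 and 51 reads in mESC, 107 and 88 in untreated, 238 and 242 in NTC and 44 and 74 in knock-down cells, or 6.87 and 11.2, 33.1 and 38.9, 56.3 and 53.9, and 15.4 and 16.3 CPM. No groups overlapped, and here the knock-down lay above mESC, unlike the cluster total. BC037039 lies on the opposite strand across the start of Pcdhgc3, and its reads cannot be told apart from those of the protocadherin. The segment rose by 1.97 ± 0.23 (log2, adjusted p = 2.51e-06) from mESC to untreated cells and fell by 1.79 ± 0.20 (adjusted p = 5.61e-06) in the knock-down against NTC. NTC exceeded untreated cells by 0.62 ± 0.19, which was not called (adjusted p = 0.0639).

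Its share of all Pcdhg reads was 5.01% (exact 95% binomial interval 3.40 to 7.07) and 8.21% (6.18 to 10.7) in the mESC libraries. In the 6 Sca1 libraries it lay between 17.2% and 20.99%, and the lowest bound of their intervals was 12.8%. Knock-down shares of 17.2% and 19.4% were thus near those of untreated (18.2% and 19.6%) and NTC cells (20.99% and 20.5%), although the reads themselves fell. These intervals cover counting error only, and with 2 libraries against 2 an exact permutation test cannot give a p below 0.333, so the shares were not tested.

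**Figure D3:**
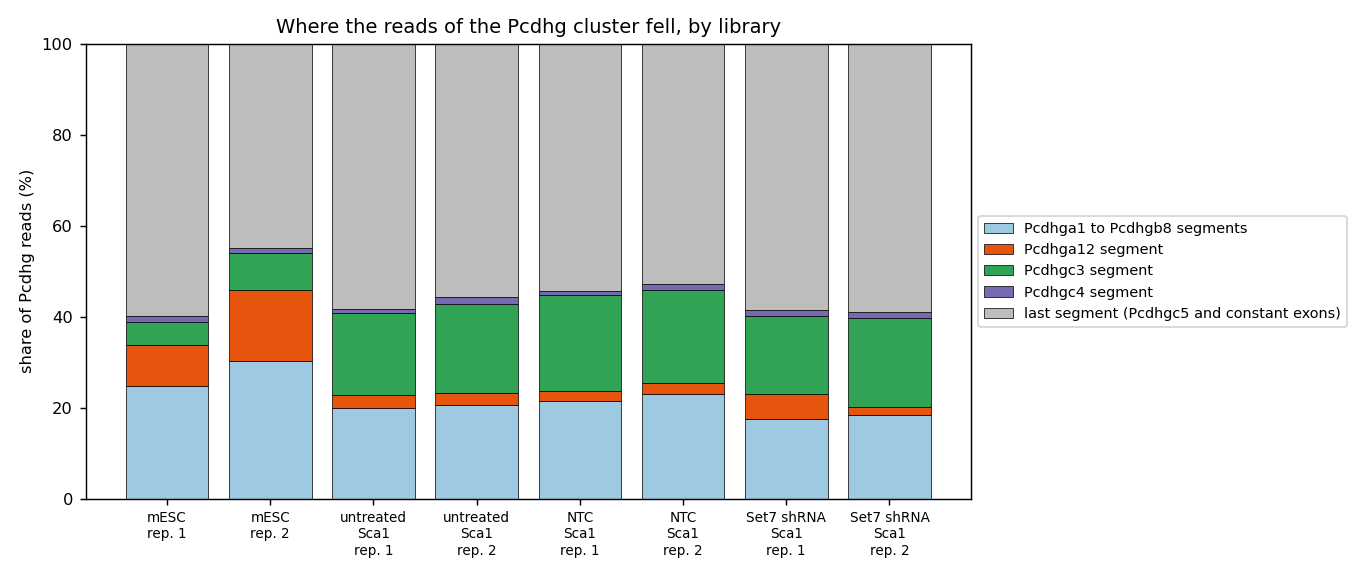
Share of the reads of the Pcdhg cluster (y axis, percent) in 5 stretches of it, for each of the 8 libraries (x axis). The Pcdhgc3 share is 5.01% and 8.21% in mESC and at least 17.2% in every Sca1 library, and the Pcdhga12 share is largest in the mESC libraries.

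Pcdhga12, the last isoform of the A type, went the other way. Its segment held 55 and 97 reads in mESC, 16 and 12 in untreated, 26 and 28 in NTC and 14 and 7 in knock-down cells. Both mESC libraries (12.6 and 21.3 CPM) lay above every Sca1 library (1.54 to 6.24 CPM), and the change from mESC to untreated cells was -1.73 ± 0.39 (adjusted p = 0.00198). Its share of Pcdhg reads was 9.18% (6.99 to 11.8) and 15.6% (12.9 to 18.7) in mESC, against at most 5.47% (3.02 to 9.01) in a Sca1 library. GENCODE vM21 places BC037039 on the opposite strand across the end of this segment and the start of Pcdhgc3, and the strand of the libraries is not given, so reads of BC037039 and of the protocadherins cannot be told apart.

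The segment of Pcdhgb8, which lies between Pcdhga11 and Pcdhga12 and is a transcribed pseudogene in the RefSeq table, had 11 and 15 reads in mESC, 2 and 2 in untreated, 6 and 10 in NTC and 4 and 4 in knock-down cells. It was called lower in untreated cells than in mESC (-1.95 ± 0.67, adjusted p = 0.0302), as was the Pcdhgb5 segment (-2.58 ± 0.90, adjusted p = 0.0327), with 13 and 8 reads in mESC, 0 and 2 in untreated, 10 and 15 in NTC and 1 and 2 in knock-down cells. Both calls were lost with DESeq2 and without untreated replicate 1, and each was lost without further single libraries. They rest on 4 and 2 reads in the untreated group. The Pcdhgb8 segment had enough reads for the test only with its mESC reads, so its call against mESC is not independent of that filter.

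The last segment, from Pcdhgc5 through the constant exons, held 358 and 279 reads in mESC, 343 and 250 in untreated, 616 and 624 in NTC and 150 and 225 in knock-down cells. That is 82.0 and 61.4, 106 and 110, 146 and 139, and 52.5 and 49.5 CPM, with no overlap between groups. It rose by 0.59 ± 0.14 from mESC to untreated cells (adjusted p = 0.00342) and fell by 1.48 ± 0.14 in the knock-down (adjusted p = 9.86e-07). Since the constant exons belong to transcripts of every Pcdhg isoform, this segment says nothing of Pcdhgc5 alone, and it also spans Gm29994 and Gm38182 on the opposite strand. Its share of Pcdhg reads was 59.8% and 44.9% in the mESC libraries, the widest gap between replicates of a group, and between 52.7% and 59.1% elsewhere.

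The other segments called higher in untreated cells than in mESC were those of Pcdhga7 and Pcdhgb4. The Pcdhga7 segment had 8 and 11 reads in mESC, 16 and 11 in untreated, 26 and 23 in NTC and 6 and 8 in knock-down cells, a change of 1.19 ± 0.44 (adjusted p = 0.0413). The Pcdhgb4 segment had 1 and 2, 4 and 6, 14 and 15, and 0 and 2 reads in the same order, a change of 2.34 ± 0.86 (adjusted p = 0.0428). Both calls were lost with DESeq2 and under most of the leave-one-out fits, those without mESC replicate 1 (adjusted p = 0.128 and 0.148) and without untreated replicate 2 (0.0886 and 0.253) among them.

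In the knock-down against NTC the 15 segments tested had log2 differences from -3.48 to -0.74. Their median was -1.76, against -0.00017 over all genes. It is not independent of the filter. The segments of Pcdhga3, Pcdhga10, Pcdhgb4, Pcdhgb5 and Pcdhgc4 had enough reads for the test only with their NTC reads. Of the 15, 9 were called lower, where 9.95% of all features were (4.16% higher, 14.1% in either direction). The count was 3 without either knock-down library and 4 without either NTC library. Besides Pcdhgc3 and the last segment these were 7 isoforms of the A and B types. The Pcdhga11 segment had 26 and 32 reads in mESC, 10 and 11 in untreated, 30 and 29 in NTC and 4 and 2 in knock-down cells, and fell by 3.00 ± 0.52 (adjusted p = 0.000592). The Pcdhga5 segment, with 4 and 7, 12 and 7, 20 and 20, and 0 and 4 reads, fell by 3.03 ± 0.65 (adjusted p = 0.00390). In both, the NTC libraries lay far above the knock-down libraries, and each call was lost in only 1 alternative fit: Pcdhga11 without knock-down replicate 2 (adjusted p = 0.0557) and Pcdhga5 without knock-down replicate 1 (0.0561).

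The remaining 5 calls rest on fewer reads or smaller changes. The segments of Pcdhga3, Pcdhga10, Pcdhgb4 and Pcdhgb5 had enough reads for the test only with their NTC reads. Their calls against NTC are therefore not independent of that filter. The Pcdhga3 segment had 5 and 9 reads in mESC, 6 and 4 in untreated, 17 and 20 in NTC and 3 and 3 in knock-down cells, and fell by 2.34 ± 0.55 (adjusted p = 0.00769). The Pcdhga10 segment had 6 and 7, 3 and 2, 20 and 15, and 3 and 4 reads, and fell by 2.05 ± 0.54 (adjusted p = 0.0147). In both, NTC stood above every other group; for Pcdhga10 the untreated cells (0.927 and 0.884 CPM) were near the knock-down (1.05 and 0.879), and for Pcdhga3 they lay above it (1.85 and 1.77 against 1.05 and 0.659). Pcdhgb4 fell by 3.48 ± 0.78 (adjusted p = 0.00554), Pcdhga7 by 1.55 ± 0.42 (adjusted p = 0.0192) and Pcdhgb5 by 2.73 ± 0.77 (adjusted p = 0.0239). All 5 calls were lost with DESeq2, without each NTC and each knock-down library in turn, and with untreated cells as the control, where Pcdhga10 and Pcdhgb5 turned to 0.057 and 0.13.

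**Figure D4:**
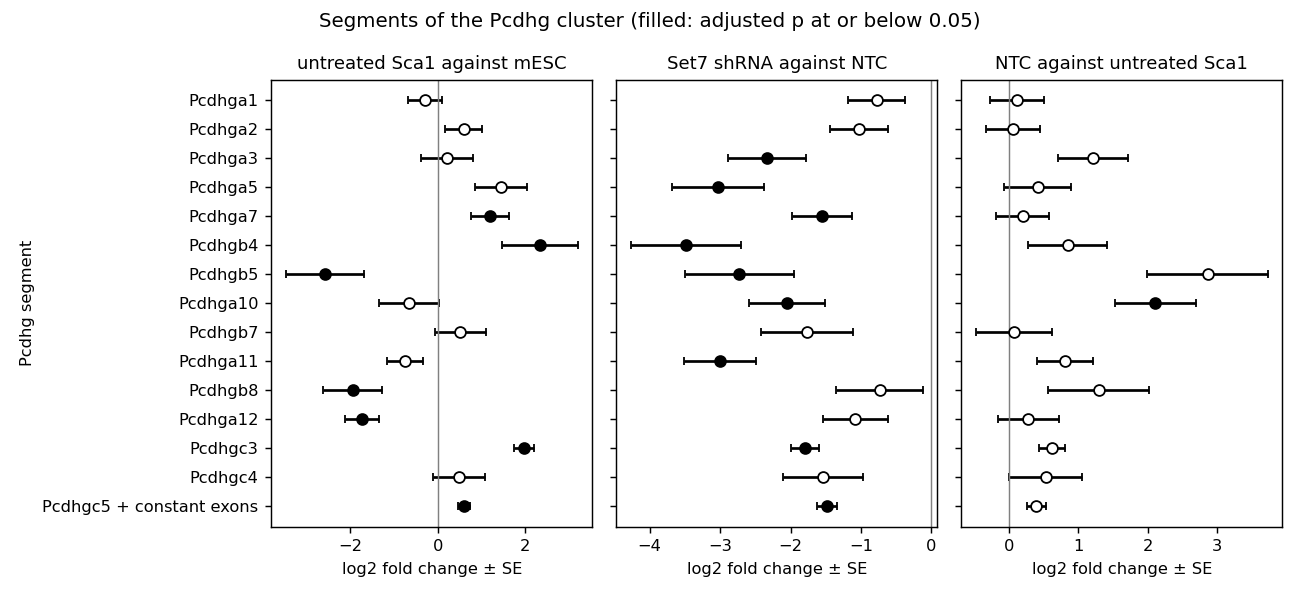
Log2 fold change ± SE (x axes) of the 15 tested Pcdhg segments (y axis, in chromosome order) in the 3 comparisons, filled where called at an adjusted p of 0.05 or less. Changes from mESC to untreated Sca1 cells go in both directions, with Pcdhgc3 at 1.97 and Pcdhga12 at -1.73, whereas all 15 lie below 0 in the knock-down against NTC. Some of the 15 had enough reads for the test only with their NTC reads.

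Only the Pcdhga10 segment was called between NTC and untreated cells (higher by 2.11 ± 0.59, adjusted p = 0.0478, where 3.62% of all features were called higher, 1.07% lower and 4.69% in either direction), and this call was lost in every fit that left out a library of the 3 Sca1 groups. As given above, the Pcdhga10 segment had enough reads for the test only with its NTC reads. The segments of Pcdhga1, Pcdhga2, Pcdhgb7 and Pcdhgc4 were tested and not called in the 3 comparisons, although the last 3 were called lower in the knock-down when only the compared groups were fitted (adjusted p = 0.0428, 0.0186 and 0.0218). The Pcdhga1 segment had 28 and 33 reads in mESC, 21 and 10 in untreated, 17 and 36 in NTC and 11 and 15 in knock-down cells. Its scaled levels overlapped between mESC, untreated and NTC cells, and it spans Gm37118 on the opposite strand. The Pcdhga2 segment had 12 and 16, 15 and 11, 22 and 21, and 5 and 13 reads, and the Pcdhgb7 segment 5 and 12, 9 and 6, 10 and 15, and 4 and 2. The Pcdhgc4 segment had 8 and 6, 5 and 7, 11 and 17, and 3 and 5, a share of Pcdhg reads between 0.849% and 1.56% in all 8 libraries.

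The 7 segments too low to test were those of Pcdhgb1, Pcdhga4, Pcdhgb2, Pcdhga6, Pcdhga8, Pcdhga9 and Pcdhgb6. The Pcdhgb6 segment had 4 and 4 reads in mESC, 4 and 2 in untreated, 9 and 10 in NTC and 0 and 0 in knock-down cells, so the knock-down was at least 5.38-fold lower than NTC with 3 reads taken as the limit over the group. That figure leaves out the counting error of the NTC reads, and the exact 95% counting interval of the ratio starts at 3.96. The Pcdhgb1 segment had 2 and 0, 1 and 1, 1 and 6, and 0 and 0 reads, at least 1.98-fold lower in the knock-down on the same footing (interval from 1.22). The Pcdhga9 segment, with 2 and 13 reads in mESC, 2 and 0 in untreated, 6 and 9 in NTC and 0 and 1 in knock-down cells, differed between its mESC libraries by more than any other of the 7. For the Pcdhga4, Pcdhgb2, Pcdhga6 and Pcdhga8 segments, group sums were 13, 11, 4 and 12 reads in mESC, 10, 11, 5 and 4 in untreated, 15, 25, 6 and 17 in NTC and 3, 8, 1 and 2 in knock-down cells.

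The Pcdhb genes, which lie between the Pcdha and Pcdhg clusters and do not overlap each other, were sparsely counted. Of 22 genes, 4 had no read in any library (Pcdhb1, Pcdhb5, Pcdhb9 and Pcdhb10), 7 had 1 read and 11 had more. Over all 22 there were 1 and 3 reads in mESC, 16 and 6 in untreated, 32 and 40 in NTC and 1 and 2 in knock-down cells. The NTC libraries (7.56 and 8.92 CPM) stood highest, the untreated libraries (4.94 and 2.65 CPM) between, and mESC (0.229 and 0.660 CPM) and knock-down (0.350 and 0.440 CPM) overlapped at the bottom. The scaled sum was 8.91-fold higher in untreated cells than in mESC (exact 95% counting interval 3.03 to 35.6), 20.4-fold higher in NTC than in knock-down cells (6.70 to 101) and 2.06-fold higher in NTC than in untreated cells (1.27 to 3.50). Within library codes the knock-down was 21.6-fold (code 12) and 20.3-fold (code 34) below NTC, and untreated cells were 21.6-fold (code 34) and 4.01-fold (code 56) above mESC.

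Pcdhb22, the last gene of this cluster, was the only one of the 22 with enough reads for the test. It passed that filter only through the NTC libraries, where it was highest, so its call against NTC is not independent of the filter. It had 0 and 1 reads in mESC, 6 and 3 in untreated, 12 and 11 in NTC and 0 and 0 in knock-down cells, so no library of NTC overlapped one of mESC or the knock-down. It was called higher in untreated cells than in mESC (adjusted p = 0.0160, 9 against 1 read, a ratio of 14.6 with an exact 95% counting interval from 2.02 to 639) and lower in the knock-down than in NTC (adjusted p = 0.00239, at least 6.51-fold lower, exact 95% counting interval from 4.88). NTC and untreated cells did not differ by the test (0.68 ± 0.60, adjusted p = 0.569). The first call was lost with DESeq2 (adjusted p = 0.128), without mESC replicate 1 (0.0909) and without untreated replicate 1 (0.119), and the second without knock-down replicate 2 (0.0816).

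The pattern did not rest on Pcdhb22 alone. The other 21 genes together were 13.9-fold higher in NTC than in knock-down cells (exact 95% counting interval 4.48 to 69.6, 49 against 3 reads) and 7.02-fold higher in untreated cells than in mESC (1.93 to 38.4, 13 against 3 reads). Pcdhb17 had 0 and 0 reads in mESC, 3 and 1 in untreated, 4 and 6 in NTC and 0 and 0 in knock-down cells, at least 2.83-fold lower in the knock-down than in NTC (interval from 1.90). Pcdhb20 had 4 and 4 reads in NTC and none in the other 6 libraries, at least 2.27-fold lower in the knock-down (interval from 1.45). Pcdhb11 and Pcdhb18 had identical counts, 1 and 0 reads in untreated, 2 and 2 in NTC and none elsewhere. Of the 22 genes, only Pcdhb3, Pcdhb13 and Pcdhb21 had a read in a knock-down library.

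**Figure D5:**
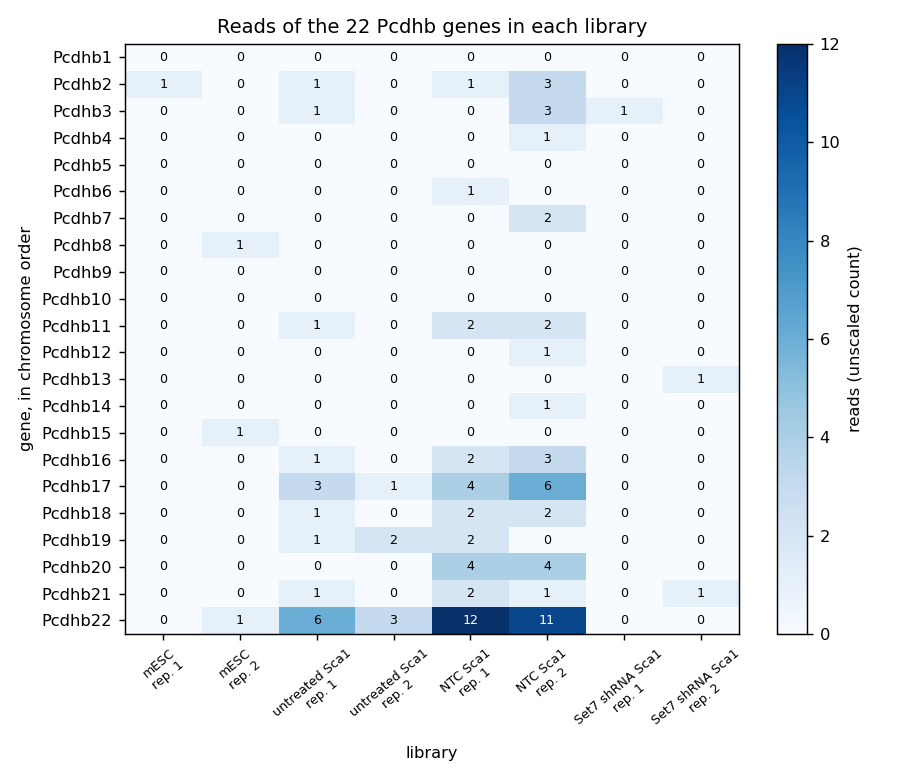
Unscaled reads of the 22 Pcdhb genes (y axis, chromosome order) in the 8 libraries (x axis), with darker cells for more reads. Reads gather from Pcdhb16 to Pcdhb22 in the untreated and NTC libraries, up to 12 for Pcdhb22, and the mESC and knock-down columns hold no cell above 1.

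The Pcdha cluster was almost silent. Its longest row, Pcdha1, held 1 and 1 reads in mESC, 4 and 6 in untreated, 3 and 5 in NTC and 7 and 3 in knock-down cells. In scaled terms that is 0.229 and 0.220, 1.24 and 2.65, 0.709 and 1.11, and 2.45 and 0.659 CPM, so all Sca1 libraries lay above mESC and the Sca1 groups overlapped except that NTC lay below untreated cells. Of its 30 reads 22 were in the last segment, from Pcdhac2 through the constant exons, and no Pcdha segment had enough reads for the test.

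The 7 Pcdha rows tested, Pcdha1 to Pcdha7, share nearly all their reads and count as a single measurement. They were called higher in untreated cells than in mESC (Pcdha1 by 2.86 ± 0.99, adjusted p = 0.0314), on 10 against 2 reads, a ratio of 8.10 with an exact 95% counting interval from 1.73 to 76.1. These rows had enough reads for the test only through untreated replicate 2 and knock-down replicate 1. Their call against mESC is therefore not independent of that filter. The call was lost with DESeq2 (adjusted p = 0.134), without either mESC library (0.0901 and 0.118), without untreated replicate 2 (0.204) and without either NTC library (0.0535 and 0.0558). Knock-down and NTC did not differ by the test (0.58 ± 0.76, adjusted p = 0.692), nor did NTC and untreated cells (-0.98 ± 0.76, adjusted p = 0.506). The ratio of knock-down to NTC was 1.47 with a counting interval from 0.523 to 4.29. Whether the Pcdha and Pcdhg clusters responded differently was not tested.

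Genes known to act on these promoters were called about as often as other genes. Of 27 regulators listed, all tested, 4 were called higher and 4 lower in untreated cells than in mESC, where 18.7% and 16.8% of all genes were. Among them were Tet3 (1.76 ± 0.20) and Tet1 (-1.50 ± 0.13), which oxidise methylated cytosine, the DNA methyltransferase gene Dnmt3a (1.10 ± 0.13) and the neuronal gene repressor Rest (-0.89 ± 0.14). Dnmt3b, the methyltransferase known to methylate clustered protocadherin promoters in the embryo, had 366 and 312 CPM in mESC, 385 and 622 in untreated, 395 and 379 in NTC and 417 and 435 in knock-down cells. Its call in untreated cells against mESC (0.57 ± 0.17, adjusted p = 0.0156) was lost without untreated replicate 2, at 0.19, without either mESC library, and with the library code as a block (0.54, adjusted p = 0.150).

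In the knock-down 3 regulators were called higher than in NTC and 2 lower, where 4.25% and 10.1% of all genes were. Tet3 had 43.7 and 55.7 CPM in NTC and 17.9 and 20.0 in the knock-down, a change of -1.38 ± 0.18. Rad21, the cohesin subunit, had 291 and 299 CPM in NTC and 441 and 433 in the knock-down, a change of 0.57 ± 0.12 (adjusted p = 0.00282). That call was lost without NTC replicate 1 (0.0699), without knock-down replicate 2 (0.0527) and with scaling by library totals only (0.0662). Dnmt3l (0.50 ± 0.11) and the cohesin loader gene Mau2 (-0.45 ± 0.14) were each lost without either NTC library and without either knock-down library. With untreated cells as control Mau2 was at -0.036 (adjusted p = 0.896). Nipbl, also a cohesin loader gene, was the other regulator called higher, opposite to Mau2. The 27 regulators had a median log2 change of -0.09, 0.12 and -0.04 in the 3 comparisons, against -0.01, 0.00 and 0.01 over all genes.

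Ctcf, the gene of the insulator protein CTCF, and Smchd1, a repressor of clustered protocadherins, were not called in any comparison. Ctcf lay between 204 and 270 CPM and Smchd1 between 191 and 219 CPM over the 8 libraries. Between knock-down and NTC they differed by 0.12 ± 0.12 and -0.01 ± 0.11. None of the 27 regulators was called between NTC and untreated cells.

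Of 31 genes whose products process, bind or signal with clustered protocadherins, 6 were called higher and 4 lower in untreated cells than in mESC, a share near the 35.5% of all genes called. Cdh2, the gene of N-cadherin, had 4.81 and 9.46 CPM in mESC, 55.9 and 51.2 in untreated, 87.4 and 82.3 in NTC and 16.5 and 17.8 in knock-down cells. Its groups came in the same order as those of the Pcdhgc3 segment. It rose by 2.90 ± 0.23 from mESC to untreated cells, fell by 2.30 ± 0.20 in the knock-down and was higher in NTC than in untreated cells by 0.66 ± 0.18 (adjusted p = 0.0395), the last call lost with DESeq2 and without any 1 of the 6 Sca1 libraries. Marcks, a membrane substrate of protein kinase C downstream of Pcdhg proteins, rose by 1.08 ± 0.14 from mESC to untreated cells and fell by 1.16 ± 0.15 in the knock-down. Nlgn2, the synaptic adhesion protein neuroligin, rose by 1.20 ± 0.23 in the first of these, and the kinase C gene Prkca fell by 1.47 ± 0.32.

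In the knock-down 1 of the 31 was called higher and 5 lower than in NTC, where 4.25% and 10.1% of all genes were. Adam10, the protease that sheds Pcdhg ectodomains, had 78.9 and 84.3 CPM in NTC and 45.5 and 51.9 in the knock-down (-0.74 ± 0.16, adjusted p = 0.00466). This call was lost without NTC replicate 2 (0.0666), without either knock-down library (0.0953 and 0.0519) and with untreated cells as control (0.0915). Nlgn2 had 42.8 and 29.4 CPM in NTC and 20.3 and 20.4 in the knock-down, and its call (-0.82 ± 0.21) was lost without NTC replicate 1 or either knock-down library. Between NTC and untreated cells Marcks was lower (-0.73 ± 0.14) and Ncstn, the gene of nicastrin, was higher (0.63 ± 0.13), both calls lost without either NTC library. The 31 genes had median log2 changes of 0.09, -0.09 and -0.02 in the 3 comparisons.

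Of 18 genes flanking the clusters 16 were tested. In untreated cells 2 were called higher than in mESC and 0 lower, where 18.7% and 16.8% of all genes were, the non-clustered protocadherin Pcdh1 (1.91 ± 0.26) and Arap3 (1.53 ± 0.30). In the knock-down Dnd1 was called higher than in NTC (0.88 ± 0.20), and Arap3 (-1.15 ± 0.28) and Dele1 (-0.53 ± 0.16) lower, 3 of 16 where 14.3% of all genes were called. These 3 calls were all lost when NTC replicate 1 or knock-down replicate 2 was left out, and Dnd1 and Arap3 also without knock-down replicate 1. The Dele1 difference was -0.29 without knock-down replicate 2 and -0.20 with untreated cells as control (adjusted p = 0.464 and 0.463). None was called between NTC and untreated cells.

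The genes at the edges of the Pcdhg cluster did not follow it. Taf7, a general transcription factor gene between the Pcdhb and Pcdhg clusters, had 187 and 147 CPM in mESC, 147 and 147 in untreated, 114 and 104 in NTC and 119 and 126 in knock-down cells. Diaph1, the formin gene after the cluster, had 181 and 209, 138 and 179, 214 and 187, and 240 and 238 CPM. Neither was called in any comparison, and their differences between knock-down and NTC were 0.17 ± 0.13 and 0.26 ± 0.13, above 0 where all 22 Pcdhg rows were below.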

How the data were processed

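The authors deposited 1 matrix of raw counts for 29614 RefSeq transcripts in 8 libraries, with no column of another study; the values are whole numbers. Tools named in the submitters' processing notes, with no role stated, were edgeR 0.19, SAMtools 0.1.17 and BWA 0.5.9. For the counting program, annotation, strand and genome build, the entry is: not given in the sources used here. RefSeq names from a GRCm38 table (28985 rows) and GENCODE vM21 (173 rows) were matched, and 456 rows stayed unnamed. For each of 23483 genes the row with the highest total was used. Gene totals were 2507938 to 5080266 per library, and counting intervals cover counting error only.

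Low genes were removed by filterByExpr, TMM set the scale, and edgeR 4.0.16 (R 4.3.3) made the test, robust quasi-likelihood with 1 mean per group over all 8 libraries, 4 residual degrees of freedom and Benjamini-Hochberg adjustment. Standard errors were derived from the log2 fold change divided by the root of its F value. A second fit replaced the nested Pcdha and Pcdhg rows by segments. At-least folds set 3 counts over a group of 0. The code was tested on simulated data.

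Members and lists were chosen with earlier results of these data known. Rows with a mean of 2 CPM or more in a group were to be given in all libraries, the nested ones here as segments. Setd7, Ctcf, Rad21, Smchd1 and Dnmt3b, and up to 4 called genes per list and comparison with the smallest p, could be named. Taf7, Diaph1 and Nipbl, the low Pcdhb genes and the Pcdha rows were added after their values were seen. Alternatives were DESeq2 1.42.0, other filters, scaling by RLE factors or by library totals only, replicate blocks, every RefSeq row, the compared groups only, untreated cells as the knock-down's control, and each library left out.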

Additional observations from a re-analysis of the deposited data

How the results depend on the processing

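The counts of members called higher in untreated cells than in mESC (30) and lower in the knock-down than in NTC (23) stayed within 1.5 times under every alternative run. The first was 22 with DESeq2 and 34 with no filter. No member was called in the opposite direction. Both counts consist mostly of the 22 nested Pcdhg rows, so this range says little of the other members. With DESeq2 the Pcdha rows and Pcdhb22 lost their calls against mESC. The 20 members called higher in NTC than in untreated cells became 13 with library totals only and 0 to 22 with a library left out; without 1 library the lone sample is assumed to vary like the other groups. Scaling by library totals moved the median of all genes in that comparison from 0.01 to 0.10 and the share of higher calls among all genes from 77.8% to 96.5%, and in the knock-down from 29.7% to 18.3%. Segments called higher in untreated cells than in mESC went from 4 to 2 with DESeq2 or the compared groups only, and to 2 to 3 with a library left out; those called lower went from 3 to 1, 1, and 1 to 3. In the knock-down 9 became 4 with DESeq2 or untreated cells as control and 3 to 11 with a library left out. Between NTC and untreated cells 1 became 2 with library totals only or the compared groups only, 3 with no filter, 0 with DESeq2 and 0 to 4 with a library left out. The cause of these changes was not tested, other than the smaller number of libraries.

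The replicate numbers of the titles match the library codes only between mESC and untreated cells and between NTC and knock-down cells. By title number, the correlation of replicate differences was 0.26 for mESC and untreated cells. For the other pairs of groups, NTC and knock-down included, it ran from -0.06 to 0.05. With the title number as replicate block, counts of members called stayed at 30, 23 and 20, and 2 segments were called higher in NTC than in untreated cells. With the library code as block the last count was 19, the Pcdhgc3 row being lost (adjusted p = 0.0704), and the Pcdhga10 segment was lost there (0.129).

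Changes of sign occurred in differences that had not been called, apart from the Pcdhga10 and Pcdhgb5 segments in the knock-down, which came to 0.057 and 0.13 with untreated cells as control, where Pcdhgb8 came to 0.56. With that control Pcdha1 to Pcdha7 came to -0.40, and without knock-down replicate 1 Pcdha1 came to -0.45, Pcdha2 to Pcdha5 to -0.27 and Pcdha6 and Pcdha7 to -0.055 (1.39, 1.57 and 1.79 without knock-down replicate 2). Between NTC and untreated cells the Pcdhga1 segment came to -0.10 without untreated replicate 2 and -0.47 without NTC replicate 2 (0.52 without NTC replicate 1), Pcdhga2 to -0.017 without NTC replicate 1, and Pcdhgb7 to -0.20 without NTC replicate 2 (0.29 without NTC replicate 1). Between untreated cells and mESC the Pcdhga3 segment came to -0.12 without mESC replicate 1 (0.65 without mESC replicate 2) and Pcdhgc4 to -0.019 without untreated replicate 2 (0.96 without untreated replicate 1).

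The Pcdhga1 row kept its calls in untreated cells against mESC (0.42 to 0.54) and in the knock-down (-1.66 to -1.13) in all 18 and 19 alternatives, as did the Pcdhgc3 segment in 16 and 17 (1.67 to 2.37 and -1.84 to -1.17) and the Pcdhga12 segment in 16 (-2.06 to -1.30). At this depth 28 of the 58 members and 7 of 22 Pcdhg segments could not be tested.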
